A study of Rattus norvegicus with 16 samples.

Results

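Adult livers of male Sprague-Dawley rats were compared after exposure in the womb and through milk to a mixture of environmental contaminants, in litters that stayed with their own mothers. The comparison rested on 8 of the 16 arrays, chosen by their titles: 4 arrays of exposed rats (M) and 4 arrays of vehicle controls (C). Dams of the M group received corn oil carrying 1.0 mg per kg per day of methylmercury, polychlorinated biphenyls and organochlorine pesticides combined, and dams of the C group received corn oil alone. Dosing ran from gestation day 0 to postnatal day 20, so the pups' exposure had ended weeks before their livers were taken on postnatal days 78 to 86. Each group held 8 male pups, and RNA from 2 rats was pooled at random for each array, so the spread between arrays is a spread between pools and p-values measure only that. The description field of the M arrays calls them a control, while their titles and treatment field give the exposure, and the latter were followed here. The other 8 arrays held cross-fostered litters, exposed (MM) and control (CC), and entered the fits for the estimate of the spread.

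Organochlorine pesticides and polychlorinated biphenyls act on the liver partly through the aryl hydrocarbon receptor and the nuclear receptors CAR and PXR, which switch on cytochrome P450 and conjugating enzymes. The liver also carries the Akr1c aldo-keto reductases, which reduce steroids and lipid aldehydes, and it makes most plasma proteins. Interferon-stimulated genes, which include the antigen presentation machinery, can be induced in hepatocytes as well as in resident immune cells.

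On each 2-colour array the red channel (Cy5) held liver RNA and the green channel (Cy3) held a commercial reference RNA from 14 rat cell lines, with no dye swap. All C and CC arrays lay on 1 slide and all M and MM arrays on the other, so exposure and slide cannot be told apart. For this reason each difference, always M minus C on the log2 scale, is given in 3 readings: the log ratio of liver over reference, the liver channel alone and the reference channel alone. Each fit had a term for the slide row, in which C and M were balanced with 2 arrays each. Liver signal was well above background at 36.1% to 41.9% of probes and reference signal at 62.0% to 66.1%. Log ratios correlated at 0.961 to 0.983 between arrays of 1 group and at 0.949 to 0.976 between C and M arrays, across probes, which are not independent replicates. All 17 hepatocyte markers passed the filter on liver signal, and their summed liver signal ranged from 836424 to 864993 in C and from 804056 to 880007 in M, so both groups carried the profile of liver tissue.

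A feature was tested where its liver signal stood well above background on 3 or more arrays of any group. Of 11091 such features, 1168 (10.5%) differed in the log ratio at an adjusted p below 0.05, 420 higher in M and 748 lower. In the liver channel 73 features (0.658%) passed, 56 higher and 17 lower, and in the reference channel, which held the same kind of reference RNA on every array, 5625 (50.7%) passed. Among the 1168 features called in the log ratio, 976 were called in the reference channel too and 43 in the liver channel, all 43 in the same direction. The difference lay mainly on the liver side, at least 2 times the reference difference and in the direction of the log ratio, for 206 of them (17.6%), against 27.0% of all features tested. It lay mainly on the reference side for 526 (45.0%), against 28.2% of all features. Most log ratio calls were small: 248 reached 1.5-fold. The 4 C and 4 M arrays did not overlap for 10.9% of features in the log ratio, 5% in the liver and 42.1% in the reference channel. The liver channel count depended on the arrays in the fit: with only the 8 C and M arrays no feature was called (limma, 1504 at an unadjusted p below 0.05). It was 79 without C 12, 23 without M 8, 11 without C 9, 10 without M 6, 6 without M 5, 5 without C 11, 3 without C 10 and 2 without M 7. Of the liver channel calls named below, those of Grina and Or5h25d passed in all 8 of these fits, and each of the others was lost in at least 1. The log ratio count fell to 719 without C 11, 696 without M 6 and 628 without M 8. With the row within each slide as a random block, 88 features passed, among them Bst2, Grina, Akr1c1 and Calr, while Akr1c2, Akr1c13, Hbb-b1 and Hbe2 did not, at adjusted p from 0.224 to 0.337.

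**Figure D1:**
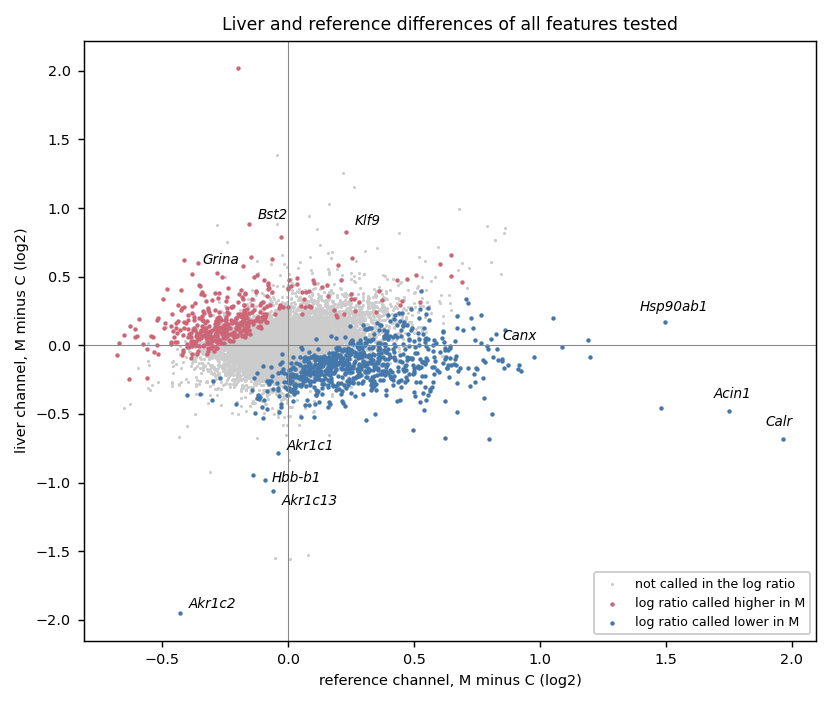
Difference of each of 11091 features in the reference channel (x axis, M minus C, log2) and in the liver channel (y axis, M minus C, log2), with features called in the log ratio in colour and selected genes named. Calr, Acin1 and Hsp90ab1 lie far to the right of 0 on the reference axis, while Akr1c13, Akr1c1, Hbb-b1 and Bst2 lie near 0 on it and far from 0 on the liver axis. Akr1c2 is lowest on the liver axis and lies at -0.43 on the reference axis.

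The Akr1c genes led the decreases on the liver side. Akr1c2, Akr1c13 and Akr1c1, members of the aldo-keto reductase family, were all called lower in M in the log ratio, while the reference channel of Akr1c13 and Akr1c1 differed little. For Akr1c2 the liver channel read 12.03, 12.01, 11.96 and 11.88 on the 4 C arrays and 8.35, 10.12, 10.25 and 11.35 on the 4 M arrays. The C arrays lay within a narrow band and every M array was below them, with M 5 the lowest and M 8 the highest. Akr1c2 differed by -1.95 ± 0.51 (SE) in the liver channel, 3.87-fold lower in M with an adjusted p of 0.0925, and by -0.43 in the reference channel. Its log ratio differed by -1.76 ± 0.41 at an adjusted p of 0.0138, by -2.45 within slide row 1 and by -1.07 within row 2. The call held without each array in turn, at differences from -2.12 to -1.23. In the scanner software's own log ratio Akr1c2 differed by -0.16 (adjusted p = 0.689). The reference channel read 5.90 to 6.58 for it in M and 6.56 to 6.71 in C, and it was called lower in M there too (adjusted p = 0.0159).

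Akr1c1 passed in both readings of liver RNA. Its liver channel read 11.42, 11.38, 12.27 and 11.55 in C and 10.78, 10.71, 11.05 and 10.93 in M, so the groups did not overlap, and C 11 was the highest array. The difference was -0.79 ± 0.17 in the liver channel (1.73-fold lower, adjusted p = 0.0494), -0.92 ± 0.13 in the log ratio (adjusted p = 0.000438) and -0.04 in the reference channel (adjusted p = 0.344). Its liver difference stayed between -0.88 and -0.62 when any 1 array was left out, and its adjusted p there ranged from 0.0455 to 0.141. Akr1c13 differed by -1.40 ± 0.34 in the log ratio (adjusted p = 0.0167) and by -1.06 in the liver channel (adjusted p = 0.116), with M 8 at 8.34 inside the C range of 8.15 to 8.80 and the other M arrays at 6.82 to 7.47. The Akr1c13 call was lost without C 9, M 5 or M 6, and its log ratio difference ranged from -1.81 to -1.20 over the arrays left out. The Akr1c genes are near-identical paralogs, and how far their probes share signal was not tested.

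Of the 15 aldo-keto reductases tested, 3 were called lower and 1 higher in the log ratio, against 10.5% of all features called in either direction, and 8 of 15 lay above 0 in the liver channel. The gene called higher was Akr1a1, which reduces a broad range of aldehydes, at 0.28 ± 0.07 in the log ratio, 0.08 in the liver and -0.22 in the reference channel. Akr1c14, Akr1c15, Akr1c3 and Akr1c12 differed by 0.02, 0.07, 0.17 and 0.11 in the liver channel, Akr1c12l1 and Akr1c19 by -0.20 and -0.17, and none of these passed. The calls in this family that were lower were thus Akr1c1, Akr1c2 and Akr1c13.

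**Figure D2:**
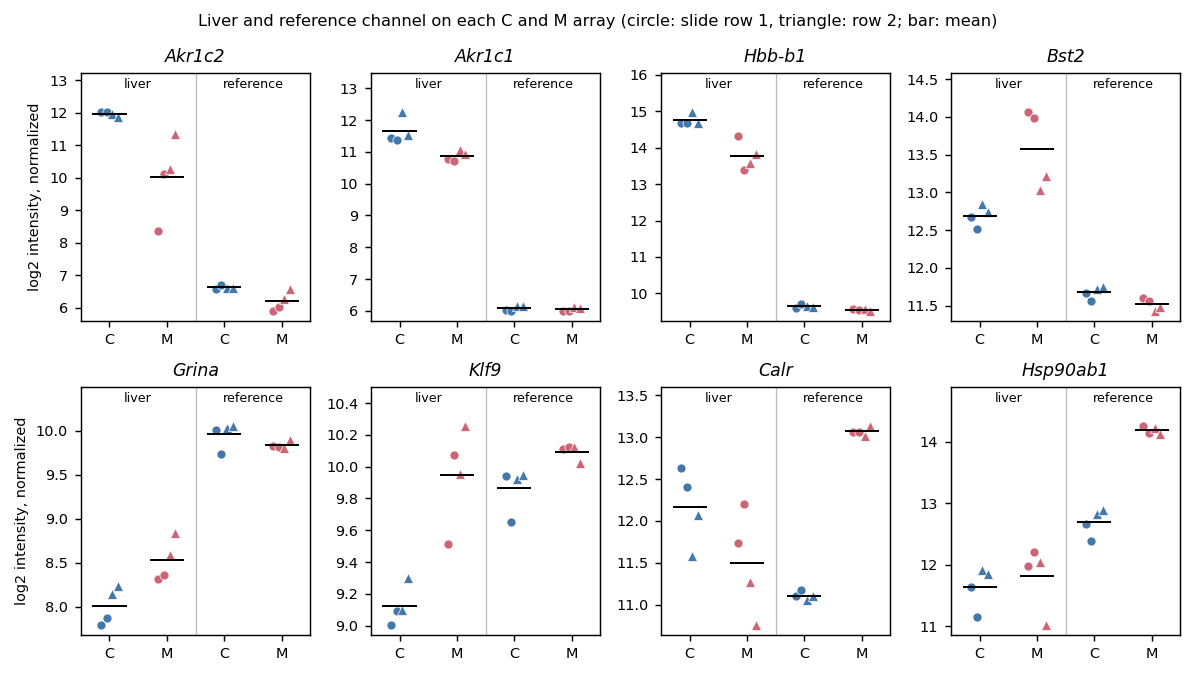
Normalized log2 intensity (y axis) of 8 genes on each of the 4 C arrays (blue) and 4 M arrays (red), liver channel at left and reference channel at right in each panel, with circles for slide row 1, triangles for row 2 and a bar for the group mean. Akr1c2, Akr1c1, Hbb-b1, Bst2, Grina and Klf9 separate C from M in the liver channel, while Calr and Hsp90ab1 separate them in the reference channel.

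The globin genes Hbb-b1 and Hbe2, which mark red blood cells, were called lower in the log ratio of M. Hbb-b1, an adult beta globin, read 14.68, 14.69, 14.99 and 14.67 in the liver channel of C and 14.33, 13.38, 13.59 and 13.82 in M. All M arrays were below all C arrays, with M 5 the nearest to them. The difference was -0.98 ± 0.27 in the liver channel (1.97-fold lower, adjusted p = 0.107), -0.88 ± 0.23 in the log ratio (adjusted p = 0.0265) and -0.09 in the reference channel. Hbe2, an epsilon-type globin gene, differed by -0.94 ± 0.26 in the liver channel (1.92-fold lower, adjusted p = 0.107) and by -0.86 ± 0.20 in the log ratio (adjusted p = 0.0121). The Hbb-b1 log ratio call was lost without C 11, M 6, M 7 or M 8, with differences between -1.03 and -0.74, and in the scanner software's log ratio, at -0.82 (adjusted p = 0.0574), while the Hbe2 call held in all 8 such fits. A second Hbb-b1 probe differed by -0.90 in the log ratio, and a second Hba-a1 probe by -0.99 against -0.31 for the brighter one. How far the probes of Hbb-b1 and Hbe2 share signal was not tested, so their calls may not be independent.

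Among the 10 erythroid markers tested, 2 were called lower in the log ratio and none higher, the share lower over all features being 6.74%. None of the 10 lay above 0 in the liver channel (47.9% of all features did), and their median was -0.59 (-0.007 over all features). Alas2, the erythroid enzyme of heme synthesis, and Ahsp, the alpha globin chaperone, differed by -0.42 and -0.31 in the liver channel and were not called, while Slc4a1 and Rhd differed by 0.00 and -0.01. The summed liver signal of the list ranged from 103238 to 128769 over C and from 55253 to 95888 over M, without overlap. Leaving out any 1 array left the median between -0.67 and -0.44. In tissue RNA, fewer red cells in the sample and less globin RNA per cell cannot be told apart, and how much blood remained in these livers was not tested.

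Some interferon-stimulated and antigen presentation genes were called higher in the log ratio of M, led by Bst2, the membrane protein tetherin that holds budding virions on the cell surface. Bst2 read 12.68, 12.51, 12.85 and 12.74 in the liver channel of C and 14.07, 13.99, 13.03 and 13.21 in M. All M arrays were above all C arrays, and those of slide row 1, M 5 and M 6, were the highest. The liver difference was 0.88 ± 0.21 (1.84-fold higher, adjusted p = 0.0683), the log ratio difference 0.91 ± 0.18 (adjusted p = 0.00433) and the reference difference -0.16 (adjusted p = 0.0126). Within slide row 1 the liver channel differed by 1.43 and within row 2 by 0.33. The log ratio call held without each array in turn, at differences from 0.78 to 1.04.

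In this list 45 genes were tested, and 4 were called higher and none lower in the log ratio, where 3.79% of all features were called higher. The other 3 were Psmb8, a subunit of the immunoproteasome, at 0.80 ± 0.13, and Tap1 and Tap2, the peptide transporter of antigen presentation, at 0.43 ± 0.11 and 0.34 ± 0.09. These 3 were also called lower in the reference channel, at -0.43, -0.34 and -0.28, and their liver channel differed by 0.41, 0.18 and 0.08 without passing. The Tap1 call was lost without C 9, C 11, M 6 or M 8. In the liver channel 38 of the 45 lay above 0, with a median of 0.13, and none was called (limma, 7 at an unadjusted p below 0.05, against 14.2% of all features). The summed liver signal ranged from 102413 to 114064 in C and from 120192 to 136091 in M, without overlap. Leaving out any 1 array left 32 to 39 genes above 0 and a median of 0.09 to 0.19. Isg20, an antiviral exonuclease, and Rtp4 differed by 0.53 and 0.51 in the liver channel, and Mx1 and Isg15 by 0.11 and 0.17. Oas1k, an oligoadenylate synthetase gene outside the list, was called higher in the log ratio at 0.95 ± 0.29 (adjusted p = 0.0461), a call lost without C 9, C 11, C 12, M 6, M 7 or M 8.

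Markers of resident immune and endothelial cells were measured beside these genes, and their part in the differences was not tested. Of 19 Kupffer cell and macrophage markers, 16 lay above 0 in the liver channel with a median of 0.11, and their summed signal ranged from 12668 to 20420 in C and from 15801 to 18761 in M, with overlap. Leaving out 1 array left 9 to 18 of them above 0 and a median from -0.03, without C 9, to 0.27. Slc11a1, a phagosomal metal transporter of macrophages, was called higher in the log ratio at 0.49 ± 0.10, with liver and reference channel differences of 0.30 and -0.17. Of the T and NK cell markers, 10 were at background on every C and M array, Cd3e, Cd4 and Cd8a among them, and the 7 tested differed by a median of 0.09 (0.044 without C 9).

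The interferon-stimulated response element, bound by the ISGF3 complex and by interferon regulatory factors, is built around the letters GAAANNGAAA. In the RefSeq promoters (GRCr8, 250 bases before the start, both strands) these letters occurred in 27 of the 43 list genes that had a promoter in the table and in 3.41% of all 33469 promoters. Psmb8, also called higher in the log ratio, was not among the 27, and Isg20, which was, was not called. The windows shown hold a match and belong to the called genes Bst2, Tap1 and Tap2 and to Isg20, whose liver difference came next to that of Bst2, with the match in capitals, read 5′ to 3′ on the strand of the gene, so that a match to the opposite strand reads TTTCNNTTTC. They lie at chr16:18255073-18255102 (Bst2, minus strand), chr20:4668645-4668674 (Tap1, minus strand), chr20:4652318-4652347 (Tap2, minus strand) and chr1:142239957-142239986 (Isg20, plus strand). The arrays did not measure binding there.
Bst2: ccaggaaaatGAAACTGAAAggtggcagca
Tap1: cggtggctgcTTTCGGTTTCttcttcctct
Tap2: gcagcgaagtGAAAGCGAAAgcccgggacc
Isg20: taatgaaccaGAAACTGAAActaaaacggc

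**Figure D3:**
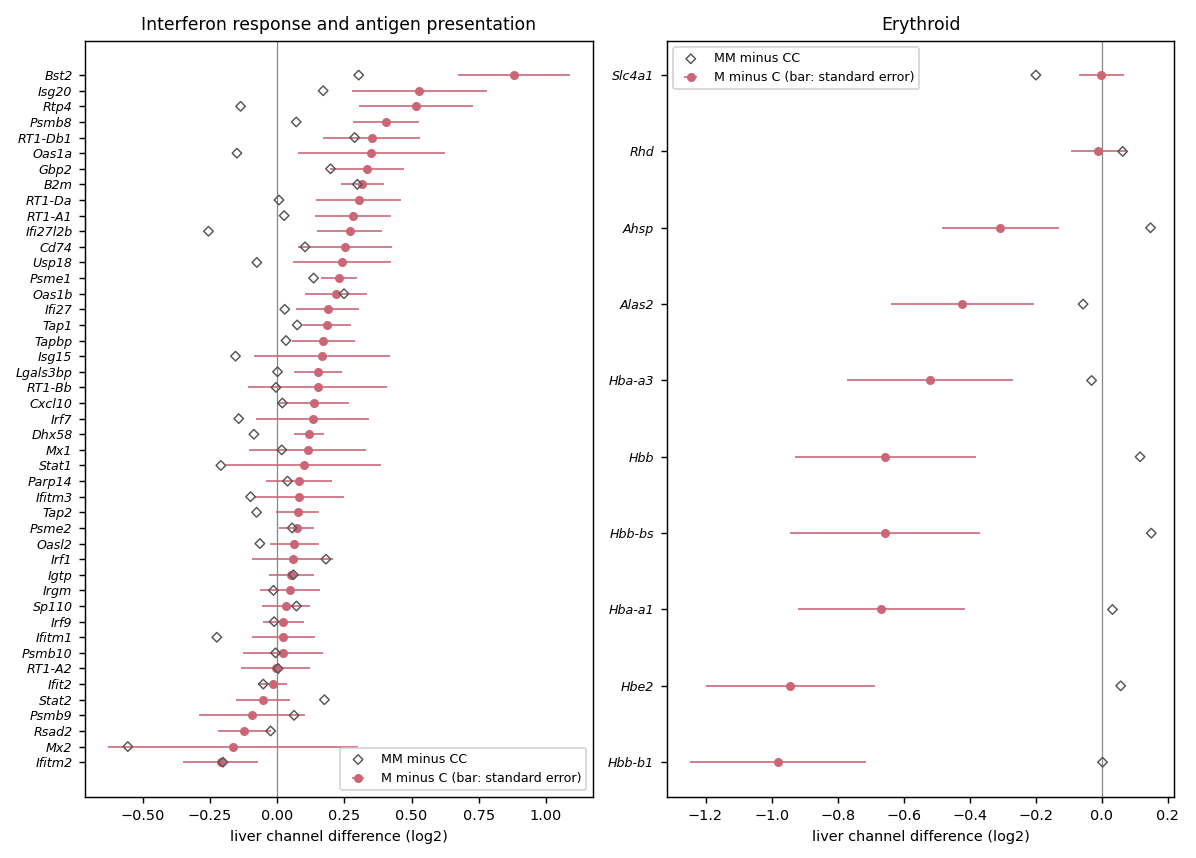
Liver channel difference (x axis, log2) of the 45 tested interferon and antigen presentation genes and the 10 tested erythroid markers, M minus C as filled points with standard errors and MM minus CC as open diamonds. Of the interferon genes 38 lie above 0 in M minus C and 25 in MM minus CC, and of the erythroid markers 0 and 7.

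Further genes were called on the liver side with groups that did not overlap. Grina, a membrane protein of the TMBIM family that guards against endoplasmic reticulum stress, read 7.79, 7.87, 8.15 and 8.24 in the liver channel of C and 8.32, 8.36, 8.59 and 8.84 in M. Every M array exceeded every C array, and row 2 was higher than row 1 in both groups. The liver difference was 0.52 ± 0.07 (1.43-fold higher, adjusted p = 0.00665), the log ratio difference 0.62 ± 0.08 (adjusted p = 0.000209) and the reference difference -0.12. Both calls for Grina held without each array in turn. Its liver call was among 18 named liver channel calls lost under scaling to the 75th percentile, while 4 held. Gpat4, a glycerol-3-phosphate acyltransferase of triglyceride synthesis, differed by 0.50 ± 0.09 in the liver channel (adjusted p = 0.0298) and 0.61 ± 0.10 in the log ratio (adjusted p = 0.00176).

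Tfr2, Eng and Iscu were called higher in both readings of liver RNA. Tfr2, the hepatocyte iron sensor transferrin receptor 2, read 7.79, 7.596, 7.76 and 8.06 in C and 8.27, 8.30, 8.28 and 8.67 in M. The M arrays were all above C, with M 8 apart from the other 3. Tfr2 differed by 0.58 ± 0.10 in the liver channel (1.49-fold, adjusted p = 0.0277) and by 0.74 ± 0.18 in the log ratio (adjusted p = 0.0167). Eng, the endothelial TGF-beta co-receptor endoglin, differed by 0.44 ± 0.08 in the liver channel (adjusted p = 0.0277) and by 0.66 ± 0.14 in the log ratio (adjusted p = 0.00891), with 9 of 11 sinusoidal endothelial markers above 0 at a median of 0.15 (7 to 10 of 11 and 0.052, without M 7, to 0.18 when 1 array was left out). In MM minus CC 3 of these 11 lay above 0. Iscu, the scaffold for iron-sulfur cluster assembly, differed by 0.45 ± 0.09 in the liver channel (adjusted p = 0.0338) and by 0.36 in the log ratio. Leaving out 1 array ended the log ratio call of Tfr2 (C 11 or M 8, lowest difference 0.59) and of Iscu (M 6, lowest difference 0.33).

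Tef, a PAR bZIP transcription factor with a daily rhythm in liver, read 7.39, 7.36, 6.86 and 7.37 in C and 7.67, 7.86, 7.80 and 8.22 in M. C 11 was the lowest and M 8 the highest array. The liver difference was 0.64 ± 0.20 (adjusted p = 0.155) and the log ratio difference 0.79 ± 0.21 (adjusted p = 0.0272), a call lost without C 9, C 10, C 11, M 6, M 7 or M 8. Its relative Dbp differed by 1.39 in the liver channel and 1.31 in the log ratio without passing (adjusted p = 0.289 and 0.130). Npas2 and Clock, activators of the circadian loop, were called lower in the log ratio at -0.37 ± 0.08 and -0.33 ± 0.09 and differed by -0.18 and -0.20 in the liver channel, the Clock call being lost without C 9, C 10, C 11, M 6 or M 8. Of the 15 clock genes tested, 1 was called higher and 2 lower in the log ratio (3.79% and 6.74% of all features), and the sources used here do not give the hour at which livers were taken.

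Pdia6, a protein disulfide isomerase, was called higher in the log ratio at 0.36 ± 0.08 and in the liver channel at 0.41 ± 0.08 (adjusted p = 0.0342). Shisa5, a p53-induced membrane protein, and Bri3, another membrane protein, were called higher in the log ratio at 0.51 ± 0.11 and 0.44 ± 0.10, with liver differences of 0.44 and 0.42 that did not pass (adjusted p = 0.0654 and 0.0756). A second Shisa5 probe differed by 0.31 in the log ratio, 0.08 in the liver and -0.27 in the reference channel, so its difference lay mainly on the reference side. On the lower side, the log ratio of Ppp2r1a, the scaffold subunit of protein phosphatase 2A, differed by -0.61 ± 0.10. Hspa9, the mitochondrial chaperone mortalin, differed by -0.57 ± 0.10, and Mrpl38, a mitochondrial ribosomal protein, by -0.50 ± 0.07. The liver differences of these 3 were -0.45, -0.41 and -0.37, with adjusted p from 0.0579 to 0.0852. Also called lower in the log ratio were the transcription factor genes Foxe1 and Etv3, at -0.60 ± 0.11 and -0.53 ± 0.09, and Olfm5, at -0.49 ± 0.12. Olfm5 also passed in the liver channel at -0.53 ± 0.11 (adjusted p = 0.0494), and its log ratio call was lost without C 11 or M 8.

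The liver channel calls included plasma proteins that the log ratio did not call. Proc, the zymogen of the anticoagulant protein C, read 8.73, 8.96, 9.21 and 9.33 in C and 9.24, 9.41, 9.71 and 9.80 in M. The groups overlapped over both rows together but not within a row, where M was higher by 0.48 in row 1 and 0.49 in row 2. Its liver difference was 0.48 ± 0.08 (1.40-fold, adjusted p = 0.0205, and 0.0288 to 0.0655 without 1 array), its log ratio difference 0.35 ± 0.13 (adjusted p = 0.0884) and its reference difference 0.01. F2, prothrombin, read 15.70, 15.63, 15.63 and 15.72 in C and 16.01, 15.89, 15.94 and 16.01 in M, a separation of all arrays, with a liver difference of 0.30 ± 0.06 (adjusted p = 0.0363, and 0.0593 to 0.124 without 1 array). F2, Fgl1, Herpud1, Dnajc3 and the globin gene Hba-a1 were named after their values were seen. Fgl1, a hepatocyte-secreted fibrinogen-like protein, differed by 0.59 in the liver channel without passing (adjusted p = 0.0907).

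Some features were measured above background in 1 group only, so their difference was given as a bound, after loess and Aquantile. In the dim group each array entered at its dimmest signal well above background, or at the measured signal where that was higher. Of 97 features dim on all C arrays and 33 dim on all M arrays, 6 had a bound over 1.5-fold. Nrg4, which encodes the secreted growth factor neuregulin 4, was not well above background on any C array and was well above it on all 4 M arrays, with measured means of 6.50 in C and 7.38 in M after loess and Aquantile. For Nrg4 the measured C signal entered, so 1.84-fold is the plain difference of these means and not a limit set by background. It holds for that normalization alone: in the quantile-normalized channels Nrg4 differed by 0.51 ± 0.09 in the liver, which is less, and by 0.65 in the reference. Of the C and M groups only M, where it is high, met the filter on liver signal, so no p-value is given for it. Nrg4 was chosen after its values were seen, as the one named gene among the 6.

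The list of acute phase, complement and coagulation genes gave opposite counts in the 2 readings of liver RNA. Of 44 genes, 38 lay above 0 in the liver channel (47.9% of all features did), with a median of 0.19. Of these 44, 2 were called there, both higher (0.505% of all features were). In the liver channel of MM minus CC 17 of the 44 lay above 0, with a median of -0.04. Leaving out 1 array left the median between 0.095, without M 8, and 0.26. In the log ratio 1 was called higher and 6 lower (3.79% and 6.74% of all features), with a median of -0.11, and in the reference channel 19 were called higher and 4 lower (23.2% and 27.5% of all features). C3 and Cfb, of the complement cascade, and Ambp, the precursor of alpha-1-microglobulin, were called lower in the log ratio at -0.41 ± 0.08, -0.55 ± 0.11 and -0.61 ± 0.13. Their liver channel differed by 0.02, -0.007 and 0.05 and their reference channel by 0.28, 0.43 and 0.48. Under the scaling to the 75th percentile and under loess with Aquantile the small liver difference of C3 and of Ambp turned below 0. Ambp is among the brightest liver transcripts here and reads the same value, 17.29, on 3 C arrays after quantile normalization.

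Klf9, a Krüppel-like factor induced by glucocorticoid and thyroid hormone, was called higher in both readings. It read 9.01, 9.09, 9.10 and 9.30 in the liver channel of C and 9.52, 10.07, 9.96 and 10.26 in M. All M arrays were above C, with M 5 the lowest of them. The liver difference was 0.83 ± 0.14 (1.77-fold, adjusted p = 0.0248) and the log ratio difference 0.51 ± 0.15 (adjusted p = 0.0470), while the reference channel was called higher too, at 0.23. The log ratio call was lost without C 9, C 11, C 12, M 6, M 7 or M 8, and the adjusted p of the liver difference ranged from 0.0241 to 0.0937 without 1 array. Of the 28 glucocorticoid response and gluconeogenesis genes tested, 23 lay above 0 in the liver channel (47.9% of all features did), and Klf9 was the 1 called there. Their median was 0.11 (0.071, without M 8, to 0.17 when 1 array was left out), with 0.05 within slide row 1 and 0.19 within row 2. In the liver channel of MM minus CC 16 of the 28 lay above 0, with a median of 0.04. Mt1, a metallothionein, differed by 0.85 ± 0.43 and Pck1, the gluconeogenic carboxykinase, by 0.36 ± 0.20 in the liver channel, neither passing. Mt1 read 13.55 on C 9 and 14.62 to 15.46 on the other C arrays, against 15.05 to 16.32 in M, so the groups overlapped.

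Of the other genes with the lowest p in the liver channel, some moved in parallel in the reference channel and some did not. The olfactory receptor gene Or5h25d differed by 0.59 ± 0.08 in the liver channel (adjusted p = 0.00665) and 0.60 in the reference channel, and Dot1l, a histone methyltransferase, by 0.51 ± 0.08 and 0.51. Incenp, a centromere protein, differed by -0.30 ± 0.06 and -0.37, and its log ratio by 0.04. Of the 73 liver channel calls, 51 were called in the reference channel as well, 40 of them in the same direction, and 50.7% of all features were called there. Clk3, a kinase of splicing factors, differed by 0.39 ± 0.06 in liver and -0.13 in reference signal. Trpv2, a cation channel, and Naa10, an N-terminal acetyltransferase, differed by -0.40 ± 0.06 and -0.31 ± 0.06 on the liver side, against -0.10 and -0.04 for the reference. Pfn1, the actin-binding profilin, differed by -0.50 ± 0.08 in the liver channel, 0.34 in the reference and -0.88 in the log ratio. The Trpv2 log ratio call was lost without C 10, C 11, C 12, M 6, M 7 or M 8, and that of Naa10 without M 6.

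Calr, Acin1 and Hsp90ab1 differed most in the reference channel of the genes named here. Calr, the endoplasmic reticulum chaperone calreticulin, read 11.10, 11.17, 11.05 and 11.10 in the reference channel of C and 13.06, 13.06, 13.02 and 13.14 in M. The reference channel thus differed by 1.97 ± 0.03 between the slides (adjusted p = 4.97e-15), with no overlap. The log ratio differed by -2.75 ± 0.13 and the liver channel by -0.68 ± 0.13 (1.60-fold lower, adjusted p = 0.0342), with liver readings of 12.63, 12.40, 11.58 and 12.07 in C and 11.74, 12.20, 11.27 and 10.76 in M that overlapped. Acin1, an apoptotic chromatin condensation and splicing factor, differed by -2.32 ± 0.19 in the log ratio, 1.75 in the reference channel and -0.48 in the liver channel. Its second probe differed by less, at -1.09, 0.88 and -0.29 in these readings. Hsp90ab1, the constitutive cytosolic HSP90, differed by -1.45 ± 0.19 in the log ratio, 1.496 in the reference channel and 0.17 in the liver channel, the last ranging from 0.0049 to 0.47 without 1 array (C 10, C 11 and each M array moved it by over 1.5 times). A second probe of Hsp90ab1 differed by -0.17 in the log ratio, 0.51 in the reference channel and 0.44 in the liver channel. Canx, the chaperone calnexin, differed by -0.69 ± 0.11, 0.83 and -0.03 in the log ratio, reference and liver channel, the last turning to 0.05 under loess with Aquantile.

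The 23 endoplasmic reticulum chaperones and stress genes tested therefore read differently by channel. In the log ratio 2 were called higher and 3 lower (3.79% and 6.74% of all features). Liver channel calls numbered 2 higher and 1 lower (0.505% and 0.153% of all features), with 14 of 23 above 0 and a median of 0.10 (0.034 without M 8). In the reference channel 12 were called higher and 5 lower, against 23.2% and 27.5% of all features. Herpud1, which serves degradation of misfolded proteins, was called higher in the liver channel at 0.67 ± 0.13 (adjusted p = 0.0322), from 10.43, 10.64, 9.9987 and 10.57 in C to 11.05, 11.27, 10.82 and 11.18 in M. The groups did not overlap, and C 11 was the lowest array. The log ratio of Herpud1 differed by 0.43 ± 0.13 (adjusted p = 0.0528). Dnajc3, a co-chaperone of BiP, differed by 0.52 ± 0.12 in the liver channel (adjusted p = 0.0725), and Hspa5, which encodes BiP, by 0.18 (adjusted p = 0.474).

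The endoplasmic reticulum stress element, bound by ATF6 with NF-Y, has the letters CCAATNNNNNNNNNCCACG. It occurred in the 250 bases before the start of 8 of the 21 chaperone genes with a RefSeq promoter (GRCr8, both strands) and in 0.0657% of all 33469 promoters. Herpud1 and Pdia6, called higher in the liver channel, were not among these 8 genes. The windows of Calr, which differed most in the reference channel, and of Dnajc3 and Hspa5, not called in the liver channel, are shown with the element in capitals. They lie at chr19:40213125-40213163 (Calr, plus strand), chr15:102432524-102432562 (Dnajc3, plus strand) and chr3:38452963-38453001 (Hspa5, plus strand). The Calr window holds it on the opposite strand, so it begins with CGTGG and ends with ATTGG.
Calr: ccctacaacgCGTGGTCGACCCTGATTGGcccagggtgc
Dnajc3: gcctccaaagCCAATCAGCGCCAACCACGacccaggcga
Hspa5: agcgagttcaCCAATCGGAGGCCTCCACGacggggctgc

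Drug-metabolizing genes are the classical targets of these contaminants. Of 5 aryl hydrocarbon receptor battery genes tested, none was called in the log ratio or the liver channel. None passed an unadjusted p below 0.05 either (limma, 0 of 5, against 25.1% of all features in the log ratio and 14.2% in the liver channel). Ugt1a6 and Nqo1 were called lower in the reference channel, as were 27.5% of all features. Cyp1a1 and Cyp1b1, its most inducible targets, and Ahr itself were not well above background on any C or M array. Cyp1a2 differed by -0.20 ± 0.15 in the log ratio and 0.33 ± 0.28 in the liver channel, Nqo1 by 0.11 ± 0.09 and -0.14, and Ugt1a6 by 0.24 ± 0.12 and 0.16, with -0.07 in the log ratio at its second probe.

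Of 18 CAR and PXR genes tested, 1 was called higher and 2 lower in the log ratio (3.79% and 6.74% of all features) and none in the liver channel (limma, 2 at an unadjusted p below 0.05, against 14.2% of all features). Por, the electron donor of all microsomal P450 enzymes, was called higher at 0.94 ± 0.23 (adjusted p = 0.0159), with a liver difference of 0.60 (adjusted p = 0.277) and a reference difference of -0.36, and the call was lost without M 8. Cyp2b3 and the organic anion transporter Slco1a4 were called lower at -0.46 ± 0.11 and -0.38 ± 0.11, with liver differences of 0.19 (-0.21 at its second probe) and -0.13, the Slco1a4 call being lost without C 10, C 11, M 5 or M 8. Cyp2b2, a phenobarbital-type P450, read 3.84, 3.98, 2.10 and 2.70 in the log ratio of C and 3.34, 3.35, 4.13 and 3.90 in M. The groups overlapped, and its difference of 0.52 ± 0.39 was -0.57 within row 1 and 1.62 within row 2. A second Cyp2b2 probe differed by 0.0035 in the log ratio and by 0.12 in the liver channel. Cyp3a2 differed by -0.006 ± 0.23 and Cyp3a9 by -0.15 ± 0.39 in the log ratio. The receptor genes Nr1i2 (PXR), Nr1i3 (CAR) and Ppara differed by -0.04, 0.07 and 0.13, with adjusted p from 0.781 to 0.946.

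Conjugation and antioxidant genes were called in the log ratio and not in the liver channel, where none of the 3 lists held a call. For the counts that follow, 3.79% of all features were called higher and 6.74% lower in the log ratio. Among 19 glutathione S-transferases, Mgst1 and Gstm4 were called higher in the log ratio at 0.34 ± 0.06 and 0.50 ± 0.14, and Gstk1 lower at -0.39 ± 0.12. Their liver differences were 0.22, 0.39 and -0.36, and none passed. Gstm4 lost its log ratio call without C 10, C 11, C 12, M 6 or M 8, and Gstk1 without C 9, C 10, C 11, C 12, M 5 or M 8, with a difference of -0.24 without M 8. Of 14 sulfotransferase and glucuronosyltransferase genes 2 were called lower, with Sult1c3 at -0.64 ± 0.15 in the log ratio and 0.03 in the liver channel. Of 22 NRF2 and oxidative defence genes 1 was called higher and 4 lower, with catalase (Cat) at -0.47 ± 0.11 and a liver difference of -0.17. The Sult1c3 call was lost without M 5 and the Cat call without M 6.

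Growth hormone dependent and sex-biased genes lay mostly below 0 in the log ratio. Of 32 such genes 2 were above 0 there (43.5% of all features), with a median of -0.22 against liver and reference channel medians of -0.02 and 0.07. Of the 32, 3 were called lower in the log ratio (6.74% of all features), led by Cyp2c13, a male P450, at -0.77 ± 0.13 with liver and reference channel differences of -0.16 and 0.50. Cyp2c11, the main male P450, differed by -0.17 ± 0.09 in the log ratio and -0.02 in the liver channel, and Igf1, the growth hormone effector, by -0.17 ± 0.12. Cyp2c12, the female form, read 2.90, 5.01, 4.31 and 5.23 in the log ratio of C and 3.09, 3.41, 2.73 and 3.57 in M. C 9 lay within the M range and the other C arrays above it, and the difference of -1.16 ± 0.47 did not pass (adjusted p = 0.136). Thra, a thyroid hormone receptor, was called higher at 0.37 ± 0.08 in the log ratio with liver and reference channel differences of 0.08 and -0.36. Thrsp, a thyroid-responsive lipogenic gene, differed by 0.85 ± 0.28 in the liver channel and by 0.86 in the reference channel, and its log ratio by -0.19. The deiodinase Dio1, the glucocorticoid receptor Nr3c1 and the cortisone reductase Hsd11b1 differed by -0.07, -0.11 and -0.03 in the log ratio, and none passed.

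Lipid genes were called mainly where the reference channel differed. Of 21 apolipoprotein and lipid transport genes none was called higher and 6 lower in the log ratio (3.79% and 6.74% of all features), with a median of -0.26, while the liver channel median was 0.05 (-0.0028 without C 11) and the reference median 0.13. Apoc2, the activator of lipoprotein lipase, differed by -0.76 ± 0.11 in the log ratio, 0.12 in the liver and 0.74 in the reference channel. Apoa2 and Apoe differed by -0.44 ± 0.11 and -0.35 ± 0.09 in the log ratio and by 0.15 and -0.03 in the liver channel. The Apoa2 call was lost without C 9, C 11, M 5 or M 8, and the Apoe call without C 11, M 6 or M 8. Of 27 cholesterol synthesis genes 8 lay above 0 in the liver channel, and 6 to 12 without 1 array. The mitochondrial citrate carrier Slc25a1, in the fatty acid synthesis list (2 of 23 higher, none lower), differed by 0.71 ± 0.12 in the log ratio, 0.20 in the liver and -0.52 in the reference channel. Hadha, of mitochondrial beta oxidation, led the 3 of 41 PPARalpha genes called lower at -1.35 ± 0.15, with liver and reference channel differences of -0.50 and 0.81, but its second probe differed by 0.55 in the log ratio. Slc27a5, a bile acid ligase, differed by -0.56 ± 0.12 with -0.01 in the liver channel, and Cyp7a1, the rate-limiting enzyme of bile acid synthesis, by 0.15 ± 0.63, with -1.31 within row 1 and 1.61 within row 2.

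Ribosomal protein and oxidative phosphorylation genes had lower medians in the log ratio than in the liver channel. Of 74 ribosomal protein genes 1 was called higher and 13 lower in the log ratio (median -0.19), against 3.79% and 6.74% of all features here and in the next counts. None was called in the liver channel (median -0.012, limma, 12 at an unadjusted p below 0.05, against 14.2% of all features), with Rpl36 at -0.52 ± 0.12 in the log ratio and -0.04 in the liver channel. Of 66 oxidative phosphorylation genes 2 were called higher and 11 lower (median -0.12), and none in the liver channel (median -0.014, limma, 12 at an unadjusted p below 0.05, against 14.2% of all features). Atp5f1b, the catalytic beta subunit of ATP synthase, was higher at 0.60 ± 0.09 with 0.34 in the liver channel. Of 30 proteasome genes 4 were called higher and 1 lower, with Psmd13 at 0.44 ± 0.07 and 0.13 in the liver channel. The keratin Krt8 and the glycolytic aldolase Aldoa were called higher in the log ratio at 0.54 ± 0.07 and 0.33 ± 0.07, with liver differences of 0.13 and -0.24. The immediate early gene Jun was called lower at -1.32 ± 0.35, with liver and reference channel differences of -0.68 (-0.40 without C 12) and 0.62. Cdkn1a, the p21 inhibitor of cell division, differed by -0.36 ± 0.10 and -0.32. The Jun call was lost without C 11, C 12, M 5, M 7 or M 8, and the Cdkn1a call without any array but C 10.

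Genes of the methylation machinery gave calls in the log ratio and none in the liver channel. Dnmt1 and Dnmt3a were not well above background on any C or M array. Of 22 DNA methylation and one-carbon genes 2 were called higher and 3 lower in the log ratio (3.79% and 6.74% of all features), and none passed in the liver channel (limma, 1 at an unadjusted p below 0.05, against 14.2% of all features). Mbd3, a subunit of the NuRD complex, was called higher in the log ratio at 0.33 ± 0.08 with -0.004 in the liver channel, a call lost without C 9 or M 8. Hmgb1, a chromatin protein with near-identical pseudogenes, differed by -0.88 ± 0.15 in the log ratio, -0.27 in the liver and 0.58 in the reference channel, and its other probes by 0.07 and -0.32 in the log ratio.

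**Figure D4:**
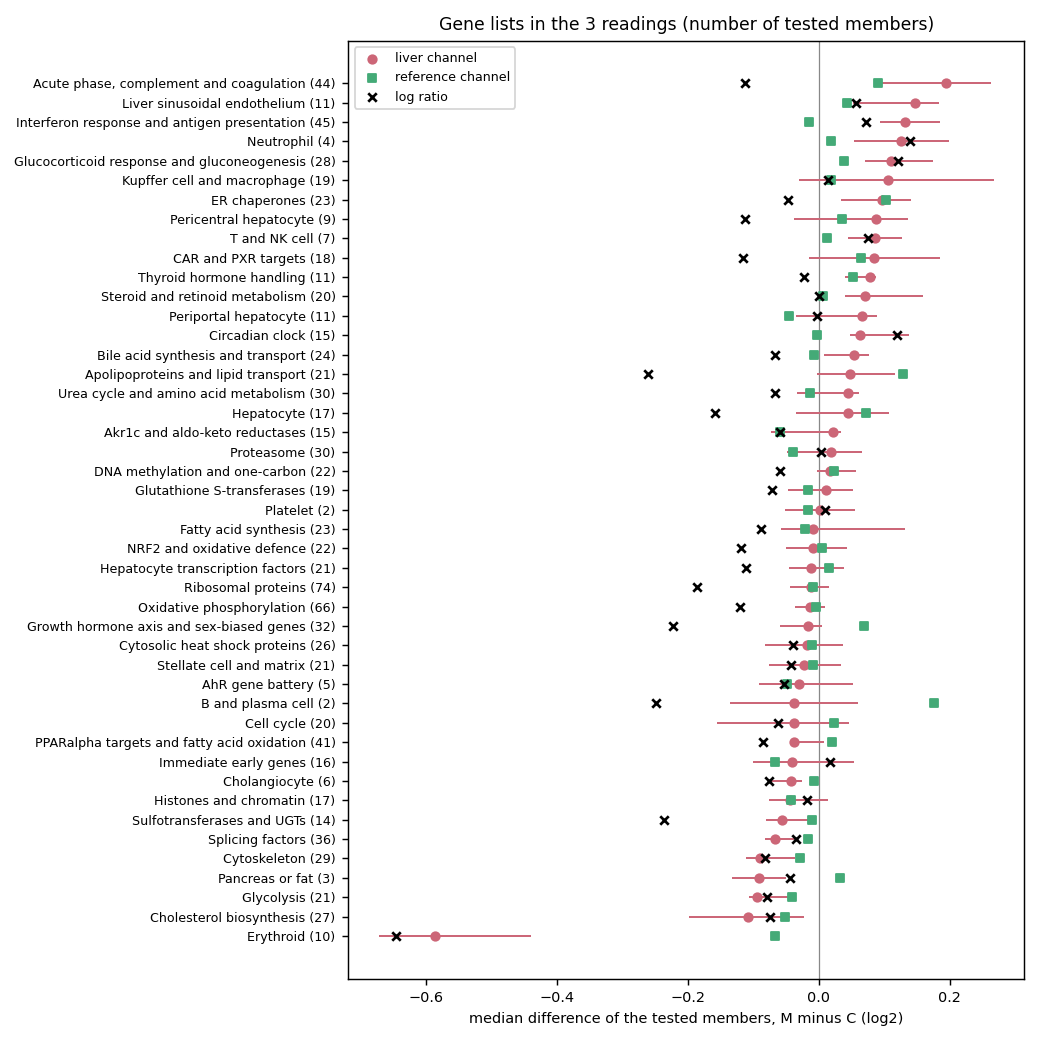
Median difference (x axis, M minus C, log2) of the tested members of each gene list in the liver channel (red circles, with a line over the range from leaving out 1 array at a time), the reference channel (green squares) and the log ratio (crosses). The erythroid list lies farthest from 0, at -0.59 in the liver channel and -0.65 in the log ratio, and the acute phase list lies highest in the liver channel, at 0.19.

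Marker lists of other cells overlapped between the groups in their summed liver signal, apart from the erythroid list. Stellate cell and matrix markers ranged from 28355 to 31955 in C and from 27687 to 35361 in M, with Pdgfrb, the pericyte receptor for PDGF, called lower in the log ratio at -0.48 ± 0.08 and -0.29 in the liver channel. Pericentral markers ranged from 12784 to 17517 in C and from 12807 to 17854 in M, with Rhbg, an ammonium transporter of pericentral hepatocytes, called higher in the liver channel at 0.49 ± 0.10 (adjusted p = 0.0349) and in the log ratio at 0.58 ± 0.16. Its log ratio call was lost without C 9, C 11, C 12, M 5, M 7 or M 8. The hepatocyte list of 17 tested genes held 2 log ratio calls, both lower (6.74% of all features were), with Tf, transferrin, at -0.56 ± 0.15 and -0.11 in the liver channel. Rbp4, the plasma carrier of retinol, from the steroid and retinoid list, differed by -0.38 ± 0.11 and -0.16. The Tf call was lost without C 10, C 11, M 5, M 6 or M 8, and the Rbp4 call without C 10, C 11, M 5, M 6, M 7 or M 8.

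The cross-fostered arrays on the same slides gave the same contrast in other litters, MM minus CC. There 420 features (3.79%) were called in the log ratio, 43 (0.388%) in the liver and 5259 (47.4%) in the reference channel. The reference differences of both contrasts had the same sign for 87.9% of features, the log ratio differences for 70.3% and the liver differences for 62.0%. Of the 73 features called in the liver channel in M minus C, 71 had the same sign in the liver channel of MM minus CC. The log ratio differences of Calr and Hsp90ab1 were -2.53 and -1.15 in MM minus CC, with reference differences of 1.99 and 1.45. Among the 20 liver-side genes, 6 were called there too, in the same direction: Grina at 0.42 ± 0.08 (adjusted p = 0.00662), Gpat4 and Shisa5 at 0.40 ± 0.10 and 0.43 ± 0.11, and Foxe1, Etv3 and Mrpl38 at -0.43 ± 0.11, -0.34 ± 0.09 and -0.34 ± 0.07.

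In the log ratio, the Akr1c and globin differences were near 0 in the cross-fostered pair. Akr1c2 differed by 0.08 ± 0.41, Akr1c1 by -0.02 ± 0.13, Akr1c13 by 0.13 ± 0.34 and Hbb-b1 by -0.04 ± 0.23 in the log ratio of MM minus CC. The liver channel of MM minus CC differed by 0.47, 0.30 and 0.20 for Akr1c2, Akr1c1 and Akr1c13, opposite in sign to M minus C. Log ratio values follow for the other genes. Tfr2 and Eng differed by -0.06 ± 0.18 and -0.11 ± 0.14, and Bst2 by 0.49 ± 0.18. The difference between both contrasts was tested for every feature, and none passed (limma, 441 of 11091, 3.98%, at an unadjusted p below 0.05). Its size was 0.90 ± 0.18 for Akr1c1 (unadjusted p = 0.000145, adjusted p = 0.805) and 1.85 ± 0.58 for Akr1c2 (unadjusted p = 0.00612, adjusted p = 0.950). The genes with the lowest p in that test also included Ednra, an endothelin receptor, at -1.05 ± 0.17 (unadjusted p = 1.68e-05), the olfactory receptor gene Or8w1b at -0.44 ± 0.10, Map3k7, the kinase TAK1, at 0.50 ± 0.12 and Naa15, an acetyltransferase subunit, at 0.43 ± 0.11, and none passed after adjustment. Ednra differed by 0.27 in the log ratio of M minus C and by -0.78 in that of MM minus CC.

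**Figure D5:**
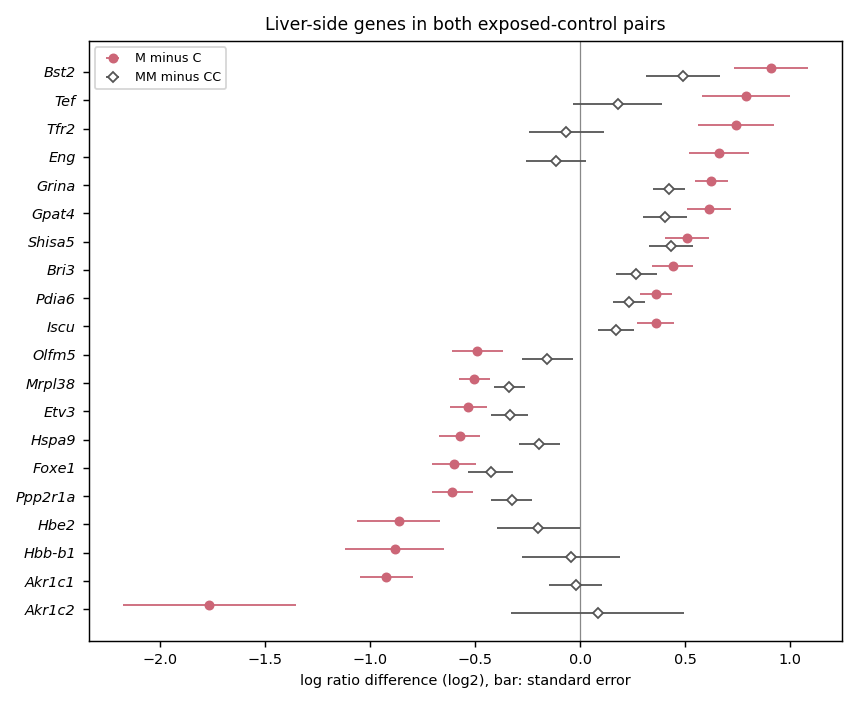
Log ratio difference (x axis, log2, bars are standard errors) of the 20 liver-side genes in M minus C (filled points) and in MM minus CC (open diamonds). Grina, Gpat4, Shisa5, Foxe1 and Ppp2r1a lie on the same side in both, while Akr1c2, Akr1c1, Hbb-b1, Tfr2 and Eng lie near 0 in MM minus CC.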

How the data were processed

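Liver RNA was hybridised against a common reference on 16 2-colour Agilent arrays, 4 per group, of design 028279. Per the file headers, the scanner software Feature Extraction 11.0.1.1 gave each spot's median intensity and local background in both channels, not yet normalized, and a log10 ratio of processed red over green. The authors' deposited value table holds a log2 ratio of liver over reference, as judged by setting each column against that array's scanner values, and its centring is unknown.

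After normexp background correction (offset 50), log ratios were normalized within arrays by loess, and intensities by quantiles within each channel for the liver and reference readings (limma 3.58.1, R 4.3.3). The brightest probe stood for a gene, and probes were named by matching accessions to RefSeq (GRCr8), which named 18005 of 30367. Features with liver signal well above background on 3 of 4 arrays of a group were tested. One limma fit per reading covered all 16 arrays with 4 group means and a slide row term, leaving 11 residual degrees of freedom, with Benjamini-Hochberg adjustment over all 11091 features. The liver side was called where the liver difference had the sign of the log ratio and at least 2 times the size of the reference difference. The scripts were tested on simulated data.

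Named genes were those with the largest liver differences among liver-side calls without overlap, the largest log ratio calls, the lowest p among liver calls, called members of each list with the lowest p, a set of receptor, hormone and detoxification genes, and the lowest p for the difference between both contrasts. For most lists 1 called member is printed, and other list members are examples chosen after their values were seen. The groups, gene lists and rules were chosen with earlier results of these data known. Lists were described by counts and medians, without a test. One gene that the naming rule gave and 1 promoter window are not reported here, and the gene stays in the counts over named genes. Alternatives covered the row term, the arrays in the fit, background correction, normalization, the filter, the probe and leaving out each array. The number of arrays limits the precision.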

Additional observations from a re-analysis of the deposited data

Results flagged for a closer look

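Among 416 sets of 4 arrays (each named gene, in the log ratio and the liver channel, in C and in M), 17 held 1 array far from the other 3 by Dixon's criterion, and chance alone marks about 1 set in 20. In the log ratio these were C 11 for Tef (-0.15), Akr1c1 (7.65) and Incenp (-0.91), C 9 for Grina (-0.72), Akr1c2 (7.15) and Cyp3a2 (8.0015), C 12 for Eng (1.03), and C 10 (5.79) and M 8 (6.795) for Fgl1. In the liver channel they were C 11 for Tef (6.86), Hbb-b1 (14.99), Rbp4 (16.64) and Ambp (17.02), C 9 for Cyp3a2 (12.24), M 8 for Tfr2 (8.67), and M 6 for Slc27a5 (13.54) and Rhbg (6.95). C 11 was the outlying array in 7 of the 17. Among genes called on the liver side, the control reading that stood out lay farther from M than the rest of its group for Akr1c1, Tef and Hbb-b1 (C 11) and for Akr1c2 and Grina (C 9), and nearer to M for Eng (C 12). The other 3 C arrays of Akr1c1, Akr1c2 and Hbb-b1 also lay above all M arrays in the liver channel, and those of Tef and Grina below all M arrays.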

How the results depend on the processing

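No paired analysis was possible because C and M share no replicate numbers (9 to 12 and 5 to 8). The log ratio count of 1168 became 455 without a term for the slide row and 88 with the row within slide as a random block, and stayed between 812 and 1445 under the other 6 alternatives. In the authors' deposited table it was 967, with 476 higher and 491 lower against 420 and 748. The liver channel count of 73 became 1 without the row term, 0 with only the C and M arrays (limma, 1504 at an unadjusted p below 0.05) and 8 with 75th percentile scaling, and was 85 with loess and Aquantile and 69 without background subtraction. The reference count stayed between 5379 and 6269 under such alternatives. Leaving out 1 array gave 628 to 1055 calls in the log ratio, 2 to 79 in the liver channel and 5014 to 5525 in the reference channel. Of the 75 named log ratio calls, 15 held with the random block, 52 without the row term, 57 in the scanner software's log ratio and 64 in the deposited table. Over the refits of these calls without 1 array, 488 kept the call and 112 lost it. Among the named liver channel calls, Nrg4 not counted, 4 held and 18 were lost with 75th percentile scaling. With loess and Aquantile 15 of them held and 7 were lost. Directions turned for second probes of Hadha (0.55) and Hmgb1 (0.066), and in the scanner software's log ratio for Incenp (-0.17), Cyp2b2 (-0.13) and Nr1i3 (-0.59). They turned for Cyp3a2 without background subtraction (0.041) and in the deposited table (0.067), and there for Hsd11b1 (0.0044). In the liver channel they turned with loess and Aquantile for Sult1c3 (-0.0030), Canx (0.053), C3 (-0.073) and Ambp (-0.081), and with 75th percentile scaling for C3 (-0.0099) and Ambp (-0.013). Leaving out 1 array turned uncalled log ratio differences of Incenp (-0.0054 to 0.13), Cyp3a2 (-0.24 to 0.16), Cyp3a9 (-0.45 to 0.11), Nr1i2 (-0.13 to 0.020), Nr1i3 (-0.25 to 0.46), Ppara (-0.056 to 0.36), Hsd11b1 (-0.14 to 0.053), Dio1 (-0.22 to 0.039) and Cyp7a1 (-0.43 to 0.88). The causes of these changes were not tested.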
